A study of Mus musculus with 23 samples.

Results

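The unfolded protein response is the set of signals by which a cell adjusts when unfolded proteins build up in the endoplasmic reticulum (ER). Its 3 sensors, IRE1, PERK and ATF6, lead to the transcription factors XBP1, ATF4 and cleaved ATF6, which raise genes for folding, for disposal of misfolded proteins and, when stress lasts, for cell death. ATF4 also answers amino acid shortage and other stresses through the same phosphorylation of the initiation factor eIF2, a wider circuit known as the integrated stress response. The 10 genes described here were taken by symbol and cover 3 roles. Hspa5, Hsp90b1, Calr, Pdia4 and Pdia6 encode chaperones and disulfide isomerases of the ER lumen. Dnajb9 and Herpud1 encode proteins that serve ER quality control and degradation, and Xbp1, Atf4 and Ddit3 encode transcription factors. All 10 were measured, among 28366 genes kept of 35019 symbols on the array, and their lead probes were well above background on all 23 arrays.

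The tissue was circumvallate papilla, the taste papilla at the back of the tongue, from male C57Bl6/j mice. The groups were DIO-R (n = 8), DIO (n = 8) and Lean (n = 7). Per the design text, the mice ate either standard chow (3% fat) or an obesogenic food rich in saturated fat, and some of the DIO mice were restricted to 60% of the energy eaten freely. The labels do not define DIO-R or Lean; they are read here as the restricted DIO mice and the chow-fed mice. The lingual epithelium was freed with elastase and dispase before the papilla was cut out, and 25 ng of total RNA per sample was labelled with Cy3. Age, diet length and hour of sampling are not given in the sources used here, and nothing says that each sample is a separate animal, so the p-values measure the spread between these samples, which may in part be technical. The arrays lay on 3 slides that each held every group. Between 66.9% and 78.4% of probes were well above background on an array, and array pairs correlated at 0.960 to 0.991 over genes. Each array is named by its group and the replicate number of its label.

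Several of these genes hold matches to motifs known for the pathway's own transcription factors just before their start sites. They are shown because most of these genes also moved together over the arrays; a match is a description of the letters, not a measured site. The ER stress response element (ERSE, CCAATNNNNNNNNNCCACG) is known as a site at which ATF6 and XBP1 act together with the factor NF-Y, and ERSE-II (ATTGGNCCACG) is a related form. Promoters were read from RefSeq with build GRCm38.p6, from 250 bases before to 50 bases after each start, and searched on both strands; all 10 genes were matched. The 250 bases before the start are printed 5′ to 3′ on the gene's own strand, with motif matches in capitals.
Hspa5 (chr2:34771840-34772089, plus strand): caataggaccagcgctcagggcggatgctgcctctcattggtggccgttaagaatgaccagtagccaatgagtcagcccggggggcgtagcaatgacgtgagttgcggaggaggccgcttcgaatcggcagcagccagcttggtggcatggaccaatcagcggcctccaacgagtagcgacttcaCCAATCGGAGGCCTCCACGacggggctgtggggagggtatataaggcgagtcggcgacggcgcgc
Hsp90b1 (chr10:86705445-86705694, minus strand): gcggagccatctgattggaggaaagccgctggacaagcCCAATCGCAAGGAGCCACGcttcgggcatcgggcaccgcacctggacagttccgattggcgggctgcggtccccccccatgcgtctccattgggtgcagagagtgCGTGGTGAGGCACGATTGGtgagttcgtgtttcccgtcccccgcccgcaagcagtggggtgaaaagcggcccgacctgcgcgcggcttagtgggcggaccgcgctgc
Calr (chr8:84846932-84847181, minus strand): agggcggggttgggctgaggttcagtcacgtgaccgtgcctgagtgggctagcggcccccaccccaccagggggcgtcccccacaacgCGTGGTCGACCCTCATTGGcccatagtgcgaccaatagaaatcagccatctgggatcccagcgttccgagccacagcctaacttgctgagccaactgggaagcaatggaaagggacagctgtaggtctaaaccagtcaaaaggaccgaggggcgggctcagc
Pdia6 (chr12:17266339-17266588, plus strand): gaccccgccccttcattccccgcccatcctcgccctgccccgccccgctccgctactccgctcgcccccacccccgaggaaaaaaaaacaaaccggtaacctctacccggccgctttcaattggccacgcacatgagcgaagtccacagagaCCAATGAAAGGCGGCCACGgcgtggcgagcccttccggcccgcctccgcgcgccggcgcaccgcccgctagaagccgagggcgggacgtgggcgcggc
Herpud1 (chr8:94386179-94386428, plus strand): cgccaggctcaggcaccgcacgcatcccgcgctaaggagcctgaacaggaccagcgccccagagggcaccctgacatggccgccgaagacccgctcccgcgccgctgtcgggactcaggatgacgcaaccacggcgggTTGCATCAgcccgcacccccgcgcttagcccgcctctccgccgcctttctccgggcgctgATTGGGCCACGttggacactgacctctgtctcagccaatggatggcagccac
Pdia4 (chr6:47813513-47813762, minus strand): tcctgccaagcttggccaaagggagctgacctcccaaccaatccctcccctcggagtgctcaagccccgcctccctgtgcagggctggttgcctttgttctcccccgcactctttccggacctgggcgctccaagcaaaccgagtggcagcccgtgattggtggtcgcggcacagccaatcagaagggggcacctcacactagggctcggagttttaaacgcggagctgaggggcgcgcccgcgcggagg

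The ERSE was found in Hspa5 at 65 to 47 bases before the start and in Pdia6 at 98 to 80 bases. In Hsp90b1 it was found at 212 to 194 bases and again, on the opposite strand, at 107 to 89 bases. In Calr it lay on the opposite strand at 162 to 144 bases. Of 32851 promoters of the same length, 39 held an ERSE (0.119%), against 4 of the 10 genes. The 10 genes were chosen as members of the pathway for which this motif is known, so their count is not an independent finding. Herpud1 held an ERSE-II at 52 to 42 bases before its start, a motif in 12 promoters (0.0365%). It also held the C/EBP-ATF element TGATGNAA, the composite site known for ATF4 and C/EBP factors, on the opposite strand at 112 to 105 bases; 3.97% of promoters held one. None of the 3 was matched in the windows of Pdia4, Dnajb9, Xbp1, Atf4 or Ddit3, which says only that these letters are not there.

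No member passed in any comparison of 2 groups after adjustment over all genes (limma with Benjamini-Hochberg adjustment). The folding genes of the ER lumen had the largest positive differences in DIO against Lean, up to 0.32 on the log2 scale (Pdia6). In DIO-R against Lean, Dnajb9 and Ddit3 (0.15 each) stood above the folding genes Hsp90b1 (0.14) and Calr (0.10). Atf4 had the largest negative difference, -0.25 in DIO-R against Lean. Adjusted p-values under 0.05 were reached by 0 of the 10 genes in DIO against Lean, in DIO-R against DIO and in DIO-R against Lean, where 0.00353%, 0.0599% and 0.127% of all genes reached them. At an unadjusted p under 0.05 the counts were 2, 1 and 4 of 10, against 8.95%, 9.73% and 8.95% of all genes. The median difference over the 10 genes was 0.10 in DIO against Lean, 0.01 in DIO-R against DIO and 0.14 in DIO-R against Lean, where the medians over all genes were -0.04, 0.01 and -0.02. Differences above 0 were found for 7, 5 and 8 of the 10 genes, against 41.1%, 51.7% and 44.6% of all genes. The groups overlapped in all 30 cases of a gene and a comparison; of all genes, 0.12%, 0.0881% and 0.303% did not overlap. The 3 comparisons share their groups and are not independent of each other. The 95% intervals of the 30 differences, unadjusted, reached from -0.40 to 0.54, and no interval went past these bounds. Levels are log2 intensities scaled by subtracting that array's 75th percentile, and differences are between group means of these levels. In such pieces of tissue, fewer cells of a type and less RNA per cell cannot be told apart.

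**Figure D1:**
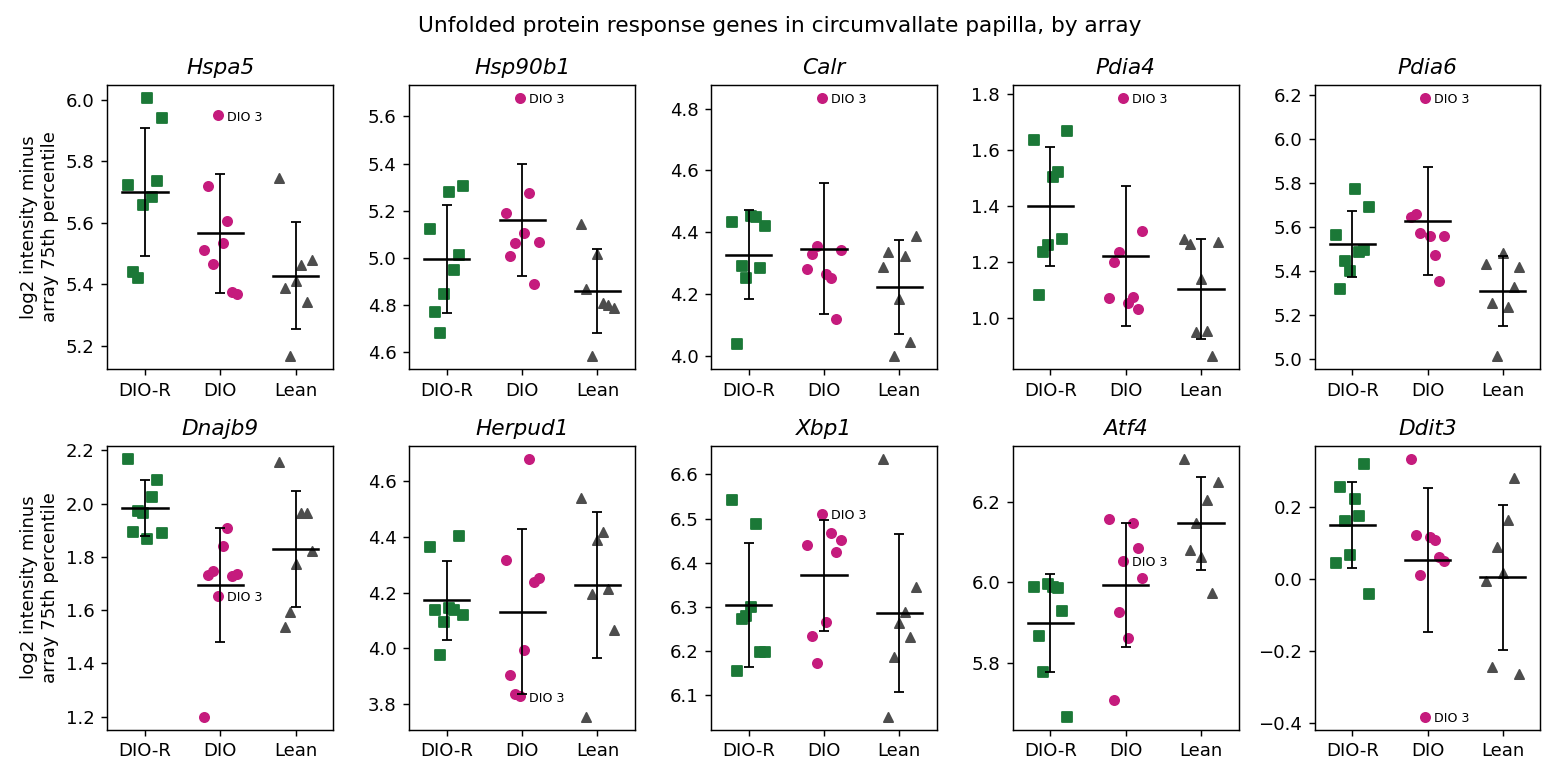
Levels of the 10 genes on each array (log2 intensity minus the array's 75th percentile); squares are DIO-R, circles DIO and triangles Lean, with horizontal bars for group means and vertical bars for SD (n = 8, 8 and 7). The groups overlap for every gene, and DIO replicate 3 is the highest array for Hsp90b1, Calr, Pdia4 and Pdia6 and the lowest for Ddit3.

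**Figure D2:**
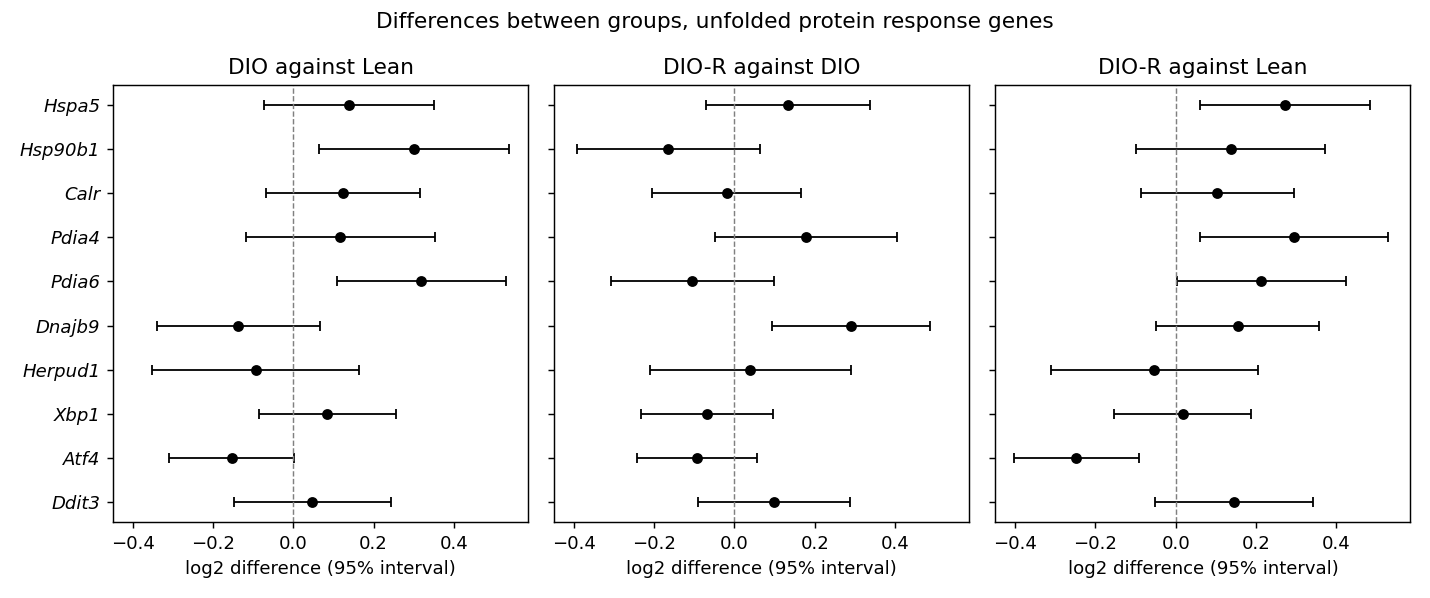
Log2 differences between group means (points) with their 95% intervals (bars) from the fit of all 23 arrays, for each gene and comparison. Intervals that leave out 0 are those of Hsp90b1 and Pdia6 in DIO against Lean, Dnajb9 in DIO-R against DIO, and Hspa5, Pdia4, Pdia6 and Atf4 in DIO-R against Lean; none of these passed after adjustment.

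Hspa5 encodes BiP, the ER form of Hsp70, which binds unfolded chains and holds the sensors inactive. Its probe lies at chr2:34631913-34631972 (plus strand, build mm9, as are all probe positions here). The levels had a lowest, median and highest value of 5.42, 5.70 and 6.01 in DIO-R, 5.37, 5.52 and 5.95 in DIO, and 5.17, 5.41 and 5.75 in Lean. Of the 8 DIO-R arrays, 7 lay above the Lean mean, although the groups overlapped. The difference of DIO-R against Lean was 0.27 ± 0.10 (SE), with an adjusted p of 0.412. DIO lay between the other groups, 0.14 ± 0.10 above Lean (adjusted p = 0.756), and DIO-R was 0.13 ± 0.10 above DIO (adjusted p = 0.633).

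Pdia4 and Pdia6 encode disulfide isomerases, which form and reshuffle the disulfide bonds of secreted and membrane proteins. The Pdia6 probe (chr12:17291070-17291129, plus strand) gave a lowest, median and highest level of 5.32, 5.49 and 5.77 in DIO-R, 5.36, 5.57 and 6.19 in DIO, and 5.01, 5.33 and 5.48 in Lean. All 8 DIO-R arrays and all 8 DIO arrays lay above the Lean mean. The difference was 0.32 ± 0.10 in DIO against Lean (adjusted p = 0.34) and 0.21 ± 0.10 in DIO-R against Lean (adjusted p = 0.547). A second Pdia6 probe followed the first with a Pearson r of 0.913 over the arrays and gave differences of 0.38 and 0.25. DIO-R against DIO stood at -0.11 ± 0.10 (adjusted p = 0.705).

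Pdia4 (chr6:47746516-47746575, minus strand) had a lowest, median and highest level of 1.08, 1.39 and 1.67 in DIO-R, 1.03, 1.14 and 1.79 in DIO, and 0.86, 1.14 and 1.28 in Lean. Here it was DIO-R that stood higher: 7 of its 8 arrays lay above the Lean mean, and the medians of DIO and Lean were alike. DIO-R against Lean gave 0.29 ± 0.11 (adjusted p = 0.426), and DIO-R against DIO gave 0.18 ± 0.11 (adjusted p = 0.579). DIO against Lean gave 0.12 ± 0.11 (adjusted p = 0.829).

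Hsp90b1 encodes GRP94, the ER form of Hsp90, and Calr encodes calreticulin, the lectin chaperone that binds calcium and newly made glycoproteins. Hsp90b1 (chr10:86153770-86153829, minus strand) had a lowest, median and highest level of 4.68, 4.98 and 5.30 in DIO-R, 4.89, 5.09 and 5.68 in DIO, and 4.59, 4.81 and 5.15 in Lean. All 8 DIO arrays lay above the Lean mean, with a difference of 0.30 ± 0.11 (adjusted p = 0.425). The difference was 0.14 ± 0.11 in DIO-R against Lean (adjusted p = 0.742) and -0.16 ± 0.11 in DIO-R against DIO (adjusted p = 0.603). Calr (chr8:87366192-87366251, minus strand) had a lowest, median and highest level of 4.04, 4.36 and 4.45 in DIO-R, 4.12, 4.31 and 4.84 in DIO, and 4.00, 4.29 and 4.39 in Lean. Its 3 differences were small beside the spread, 0.12 in DIO against Lean, -0.02 in DIO-R against DIO and 0.10 in DIO-R against Lean, each with an SE of 0.09 and an adjusted p of at least 0.76.

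Dnajb9 encodes ERdj4, a J-domain partner of BiP that is known as a target of spliced XBP1. The probe (chr12:45307313-45307372, minus strand) gave a lowest, median and highest level of 1.87, 1.97 and 2.17 in DIO-R, 1.20, 1.73 and 1.91 in DIO, and 1.54, 1.82 and 2.16 in Lean. DIO-R was the tightest group, and all 8 of its arrays lay above the means of both other groups. The difference was 0.29 ± 0.09 in DIO-R against DIO (adjusted p = 0.445), 0.15 ± 0.10 in DIO-R against Lean (adjusted p = 0.669) and -0.14 ± 0.10 in DIO against Lean (adjusted p = 0.744). DIO replicate 1 was the lowest array of all, and without it DIO-R against DIO was 0.22. A second, dimmer Dnajb9 probe followed the first only loosely (r = 0.393) and gave 0.12 in DIO-R against DIO.

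Herpud1 encodes a membrane protein of the ER-associated degradation complex, and its promoter is the one with the ERSE-II above. Its levels (chr8:96919117-96919176, plus strand) had a lowest, median and highest value of 3.98, 4.14 and 4.40 in DIO-R, 3.83, 4.12 and 4.68 in DIO, and 3.76, 4.21 and 4.54 in Lean. The groups overlapped over most of their range. Differences were -0.09 ± 0.12 in DIO against Lean, 0.04 ± 0.12 in DIO-R against DIO and -0.05 ± 0.12 in DIO-R against Lean, with adjusted p-values of 0.882, 0.912 and 0.915. The sign of DIO-R against DIO turned when DIO replicate 3 or DIO replicate 2 was left out (-0.0035 and -0.0021).

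Xbp1 encodes the transcription factor made active when IRE1 cuts an intron from its messenger RNA; the array probe does not tell the spliced from the unspliced form. Xbp1 (chr11:5425816-5425875, plus strand) had a lowest, median and highest level of 6.15, 6.27 and 6.54 in DIO-R, 6.17, 6.43 and 6.51 in DIO, and 6.05, 6.26 and 6.64 in Lean. Its groups spanned nearly the same range. The differences were 0.09 ± 0.08 in DIO against Lean, -0.07 ± 0.08 in DIO-R against DIO and 0.02 ± 0.08 in DIO-R against Lean, with adjusted p-values of 0.828, 0.761 and 0.962.

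Atf4 encodes the transcription factor downstream of PERK; its output is known to be set largely by translation of its message, which an array does not measure. Atf4 (chr15:80087902-80087961, plus strand) had a lowest, median and highest level of 5.67, 5.96 and 5.996 in DIO-R, 5.71, 6.03 and 6.16 in DIO, and 5.97, 6.15 and 6.31 in Lean. DIO-R and Lean overlapped: DIO-R replicates 4, 5, 6 and 10, at 5.986 to 5.996, lay above the lowest Lean array, at 5.974. No DIO-R array passed any other Lean array, and none of the 8 reached the Lean mean. The difference was -0.25 ± 0.07 in DIO-R against Lean (adjusted p = 0.253). DIO against Lean gave -0.15 ± 0.07 (adjusted p = 0.564) and DIO-R against DIO gave -0.09 ± 0.07 (adjusted p = 0.647). A second Atf4 probe correlated with the first at 0.699 and gave -0.29 in DIO-R against Lean and -0.12 in DIO against Lean.

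Ddit3 encodes CHOP, the factor tied to cell death under lasting ER stress and a known target of ATF4. Its probe spans chr10:126732518-126732821 (plus strand) in the array's annotation. The levels had a lowest, median and highest value of -0.04, 0.17 and 0.32 in DIO-R, -0.38, 0.08 and 0.33 in DIO, and -0.27, 0.02 and 0.28 in Lean. The order of the medians ran the other way from Atf4, with wide overlap. Ddit3 differed by 0.15 ± 0.09 in DIO-R against Lean (adjusted p = 0.673), by 0.10 ± 0.09 in DIO-R against DIO (adjusted p = 0.706) and by 0.05 ± 0.09 in DIO against Lean (adjusted p = 0.925).

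One array recurred at the ends of these ranges. DIO replicate 3 was the highest of all 23 arrays for Hsp90b1 (5.68), Calr (4.84), Pdia4 (1.79) and Pdia6 (6.19), and the lowest for Ddit3 (-0.38). Over all genes, it was the highest array for 6.78%, more than an even share among 23 arrays, and the lowest for 3.75%. In its median correlation with the other arrays it did not stand apart (0.980, rank 14 of 23 from the lowest). Its basal keratinocyte markers (Krt5, Krt14 and Trp63), averaged, were the highest of 23 arrays at 6.24, against 5.16 to 6.18 on the others. Its endothelial markers (Pecam1, Cdh5 and Kdr) were the lowest at 0.298, against 0.303 to 1.097 on the others. Their part in the result was not tested. Without this array the difference in DIO against Lean was 0.24 for Pdia6 (adjusted p = 0.258) and 0.23 for Hsp90b1 (adjusted p = 0.381). For Hspa5, Calr and Pdia4 it came to 0.08, 0.05 and 0.04, against 0.14, 0.12 and 0.12 with it. The median over the 10 genes in DIO against Lean was then 0.06, against 0.10 with it. Ddit3 in DIO against Lean moved to 0.11, against 0.05, and Calr in DIO-R against DIO turned to 0.05, against -0.02.

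The 5 folding genes of the ER lumen moved together from array to array, while Atf4 and Xbp1 had no pair with them that passed. All 10 pairs among Hspa5, Hsp90b1, Calr, Pdia4 and Pdia6 correlated positively over the 23 arrays, with Pearson r from 0.634 to 0.881 (median 0.753). All 10 passed a two-sided permutation test of r after adjustment over the 45 pairs of members computed, and 8 of them passed by Spearman's rho. Hsp90b1 and Pdia6 were the closest pair, with r = 0.881 (permutation p = 1e-05, the smallest that the resamples can give; adjusted p = 0.00015) and rho = 0.798 (adjusted p = 0.00045). Leaving out the 2 arrays farthest from the median Hsp90b1 level gave r = 0.753. Calr and Pdia4 followed with r = 0.838 (permutation p = 1e-05, adjusted p = 0.00015), rho = 0.816 (adjusted p = 0.00045) and r = 0.775 without the 2 farthest arrays. The weakest of the 10 was Hsp90b1 with Pdia4 at r = 0.634 (permutation p = 0.00104, adjusted p = 0.00468) and rho = 0.518 (adjusted p = 0.0603).

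With the group means removed, the 10 coefficients lay between 0.694 and 0.892. Without DIO replicate 3 they lay between 0.488 and 0.807, and 9 of the 10 passed; Hsp90b1 with Pdia4 did not (r = 0.488, adjusted p = 0.0793). Within single slides of 7 or 8 arrays they ranged from 0.0995 to 0.895 on slide 1, 0.663 to 0.898 on slide 2 and 0.411 to 0.932 on slide 3. All values of an array share its labelling and scaling, and arrays can differ in their mix of cells. Pdia4 moved with the other 4 genes although no ERSE was matched in its window.

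**Figure D3:**
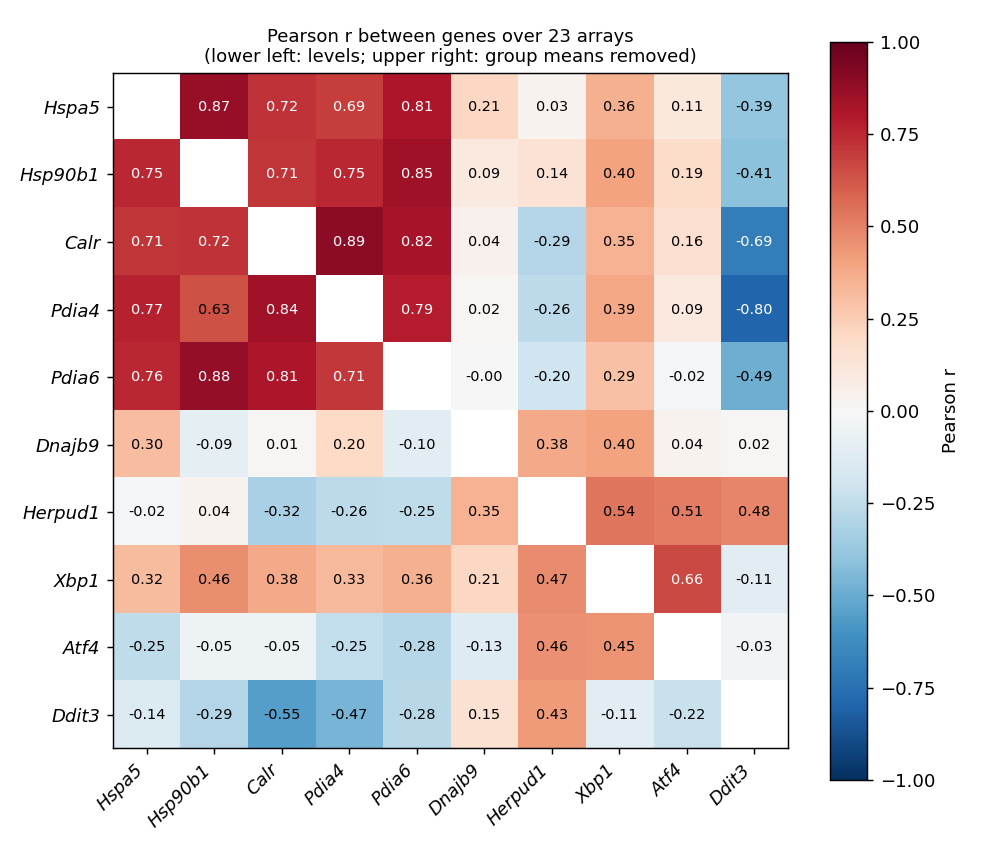
Pearson r for each pair of the 10 genes over 23 arrays, coloured from -1 (blue) to 1 (red); the lower left holds r of the levels and the upper right r after group means were removed. The block of 5 folding genes at the top left is red throughout, with r of 0.634 to 0.881 in the levels, while the row of Ddit3 is mostly blue against it.

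Among the other 35 pairs r ran from -0.547 to 0.475, and 1 passed after adjustment. This was Calr with Ddit3 at r = -0.547 (permutation p = 0.00851, adjusted p = 0.0348), with rho = -0.362 (adjusted p = 0.207). In the levels it rested on a few arrays: r was -0.327 without the 2 farthest arrays and -0.286 without DIO replicate 3 (adjusted p = 0.385). Within slides it was -0.253, -0.791 and -0.531. With group means removed it was -0.689 (adjusted p = 0.00938), and with group and slide means removed -0.687 (adjusted p = 0.00704). Pdia4 with Ddit3 gave r = -0.467 (adjusted p = 0.0831) in the levels and -0.795 with group means removed (adjusted p = 0.00099). Without DIO replicate 3 it was -0.272 in the levels (adjusted p = 0.385). With group means removed, Xbp1 with Atf4 (r = 0.662, adjusted p = 0.0031) and Herpud1 with Xbp1 (r = 0.539, adjusted p = 0.0395) passed as well; in the levels they stood at 0.45 and 0.475 and did not pass. Without DIO replicate 3, Herpud1 with Xbp1 stood at 0.624 in the levels and passed (adjusted p = 0.0111), the 1 pair of these 35 that did. Atf4 and Ddit3 themselves showed no relation that passed, with r = -0.22.

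**Figure D4:**
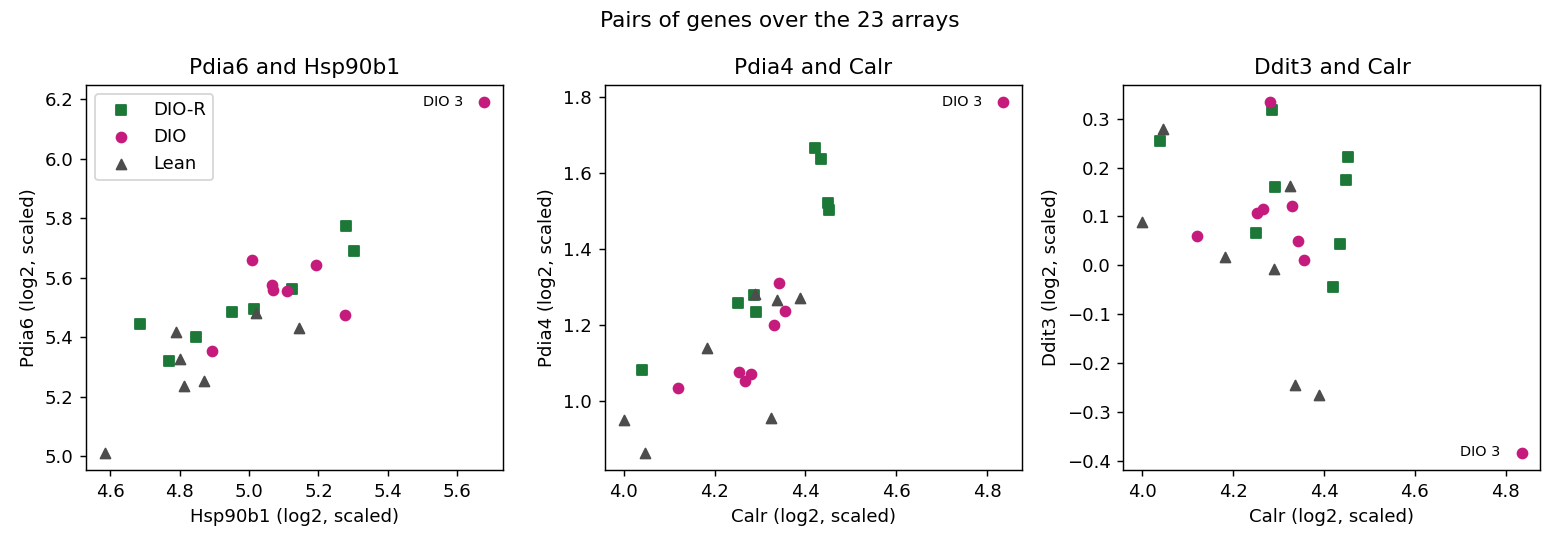
Levels on each array (log2, scaled to the array's 75th percentile) for Pdia6 against Hsp90b1, Pdia4 against Calr, and Ddit3 against Calr; squares are DIO-R, circles DIO and triangles Lean. The first 2 pairs rise together in all groups (r = 0.881 and 0.838), whereas the third (r = -0.547) leans on DIO replicate 3 at the lower right.

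Relations with cell type markers were computed for each member and 13 marker lists, 130 in all, each list summarised on an array by its mean level. Of these, 3 passed after adjustment over the 130 by a permutation test of r. Pdia4 and Calr ran against the endothelial list, with r = -0.762 (rho = -0.740, permutation p = 1e-05, adjusted p = 0.0013) and r = -0.682 (rho = -0.666, permutation p = 0.00026, adjusted p = 0.0169). Herpud1 ran with the serous gland list (Lpo, Dcpp1, Dcpp2, Pip, Amy1, Muc19 and Aqp5), with r = 0.676 (rho = 0.724, permutation p = 0.00046, adjusted p = 0.0199). By Spearman's rho 7 passed: these 3, Calr and Pdia4 with basal keratinocytes (rho = 0.683 and 0.650, each adjusted p = 0.0219 by permutation), and Calr with type II and type III taste cells (rho = 0.668 and 0.633, adjusted p = 0.0219 and 0.0245 by permutation). By r these 4 stood at 0.523, 0.599, 0.357 and 0.274 and did not pass. The 3 relations that passed by both kept r of -0.672, -0.544 and 0.760 without the 2 farthest arrays. Within each of the 3 slides they lay between -0.834 and -0.712, between -0.722 and -0.562, and between 0.682 and 0.753.

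Between groups, none of the markers passed after adjustment, but several lists leaned one way. The serous gland list had an average level of 0.34 to 2.85 in DIO-R, 0.51 to 4.11 in DIO and 1.36 to 4.29 in Lean, and all 7 of its genes lay below 0 in DIO-R against Lean (median -1.12). The endothelial list spanned 0.30 to 0.82 in DIO-R, 0.30 to 1.097 in DIO and 0.32 to 0.96 in Lean. All 3 endothelial markers lay below 0 in DIO-R against DIO and against Lean (medians -0.16 and -0.12). In DIO against Lean 2 lay above 0 and 1 below. Erythrocyte markers had a median difference of 1.20 in DIO against Lean and -1.12 in DIO-R against DIO. All 4 skeletal muscle markers lay below 0 in DIO-R against DIO and against Lean (medians -0.60 and -0.58). All 3 basal keratinocyte markers lay above 0 in DIO-R against DIO and against Lean (each median 0.16). In DIO against Lean they lay below 0 (median -0.01). All 5 differentiated keratinocyte markers lay below 0 in DIO against Lean (median -0.50) and above 0 in DIO-R against DIO (median 0.39). All 3 adipocyte markers lay below 0 in DIO-R against DIO and against Lean (medians -0.82 and -0.72). Of the plasma cell list, Igj and Ighm were not among the genes kept, and the other 3 had low levels, -2.75 to -1.50. Taste cell markers of types I, II and III were all kept, with list averages of -0.64 to 1.70. All 5 type II markers lay below 0 in DIO against Lean (median -0.32). In DIO-R against DIO 4 of them lay above 0 (median 0.28), and in DIO-R against Lean 3 did. All 4 fibroblast and all 4 macrophage markers lay above 0 in DIO against Lean (medians 0.38 and 0.19). In DIO-R against DIO all of these lay below 0 (medians -0.22 and -0.33). The part of any of these in the members' differences was not tested.

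A wider set of 93 pathway genes, of which 92 were kept (Ubxn4 was not), shows where the 10 members sit. None passed after adjustment in any comparison (limma, smallest adjusted p 0.155). At an unadjusted p under 0.05, 8 lay higher and 6 lower in DIO against Lean, 4 and 4 in DIO-R against DIO, and 7 and 9 in DIO-R against Lean. These are 15.2%, 8.7% and 17.4% of the 92, where 8.95%, 9.73% and 8.95% of all genes reached that threshold in either direction, so the share in DIO-R against DIO was near that of all genes. In both DIO-R and DIO against Lean, more of the ER chaperones lay above 0 than below it, and more of the targets of ATF4 below it. Genes of a list can move together over the arrays, as the folding genes of the ER lumen did. The list counts here and below are therefore not of independent genes.

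Among the 20 further chaperones and folding enzymes, 13 lay above 0 in DIO against Lean, 11 in DIO-R against DIO and 14 in DIO-R against Lean, with medians of 0.06, 0.03 and 0.07. At an unadjusted p under 0.05, 4, 2 and 5 of them lay higher and none lower, where 4.05%, 5.94% and 4.43% of all genes lay higher. In DIO against Lean these were Pdia3, Creld2, Pdia5 and Uggt1, and in DIO-R against DIO Txndc11 and Manf. In DIO-R against Lean they were Creld2, Manf, Uggt1, Pdia3 and Txndc11. Pdia3 and Txndc11 were named for their small p in these data, and the others were picked after their values were seen. Pdia3, the isomerase that works with calreticulin, differed by 0.20 ± 0.07 in DIO against Lean (adjusted p = 0.416). Txndc11, a thioredoxin domain protein, differed by 0.17 ± 0.07 in DIO-R against DIO (adjusted p = 0.479), but with the mean of all its probes by 0.014, and in DIO-R against Lean by 0.14 and, with that mean, by 0.022 (adjusted p = 0.976). Creld2, an ER protein known to rise under ER stress, averaged 4.29 ± 0.28 in DIO-R, 4.14 ± 0.24 in DIO and 3.87 ± 0.22 in Lean (SD). Its difference in DIO-R against Lean was 0.42 ± 0.13 (SE, adjusted p = 0.262), and all 8 DIO-R arrays lay above the Lean mean. With each array left out in turn, the 3 counts ran from 2 to 5, from 1 to 4 (4 without DIO replicate 3) and from 3 to 7. Over the other settings they ran from 1 (with the replicate block) to 5, from 0 (with the authors' value table) to 3 and from 3 to 6. Without DIO replicate 10, 4 of the 20 lay lower in DIO-R against DIO. The 13 above 0 in DIO against Lean came to 9 without DIO replicate 6 and to at least 11 without any other array.

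The 23 targets of ATF4 and the integrated stress response lay below 0 in 20 cases in DIO against Lean (median -0.15) and in 21 cases in DIO-R against Lean (median -0.16). In all genes, 58.9% and 55.4% lay below 0. In DIO-R against DIO the 23 split into 11 above and 12 below (median -0.02), where 48.3% of all genes lay below 0. At an unadjusted p under 0.05, 3, 3 and 8 lay lower in DIO against Lean, DIO-R against DIO and DIO-R against Lean, where 4.9%, 3.79% and 4.52% of all genes did. The first 3 were Ppp1r15a, Cebpb and Sars and the second 3 Atf5, Vldlr and Slc3a2. Cebpb and Sars were picked after their values were seen, and the others were named for their small p in these data. With each array left out in turn, the first of these counts ran from 1 (without Lean replicate 9) to 6 (without Lean replicate 7). The second ran from 3 to 6 (without DIO replicate 10), and the last from 7 to 11 (without Lean replicate 3 or Lean replicate 7). Over the other settings the first ran from 0 with the replicate block to 10 with array weights, the second from 2 with the replicate block to 7 with the authors' value table, and the last from 6 to 9. The counts below 0 against Lean stayed at 19 to 21 in DIO-R and 19 to 22 in DIO over all of these.

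Slc3a2, the heavy chain shared by several amino acid exchangers, had the smallest adjusted p of the wider set. Its levels averaged 4.10 ± 0.12 in DIO-R, 4.38 ± 0.28 in DIO and 4.55 ± 0.24 in Lean (SD), with differences of -0.45 ± 0.12 in DIO-R against Lean (SE, adjusted p = 0.155) and -0.29 ± 0.11 in DIO-R against DIO (adjusted p = 0.479). No DIO-R array reached the mean of either other group. Atf5, a transcription factor related to ATF4, averaged 4.89 ± 0.24 in DIO-R, 5.46 ± 0.38 in DIO and 5.46 ± 0.24 in Lean. It differed by -0.57 ± 0.15 in DIO-R against Lean (adjusted p = 0.179) and by -0.57 ± 0.15 in DIO-R against DIO (adjusted p = 0.232). Here too none of the DIO-R arrays reached the mean of either other group.

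Eif4ebp1, a repressor of translation, averaged 2.81 ± 0.26 in DIO-R, 3.20 ± 0.48 in DIO and 3.59 ± 0.45 in Lean, and differed by -0.77 ± 0.20 in DIO-R against Lean (adjusted p = 0.181). Without Lean replicate 3 it was -0.93 and passed, with an adjusted p of 0.0295, and it also passed with array weights (adjusted p = 0.0426). It passed under no other alternative, with adjusted p-values up to 0.441. Vldlr, a lipoprotein receptor, averaged 2.02 ± 0.45 in DIO-R, 2.64 ± 0.33 in DIO and 2.74 ± 0.42 in Lean. It differed by -0.71 ± 0.20 in DIO-R against Lean (adjusted p = 0.212) and by -0.62 ± 0.20 in DIO-R against DIO (adjusted p = 0.429). Slc3a2, Atf5, Eif4ebp1 and Vldlr were lowest in DIO-R, as Atf4 was. They were named for their small p in DIO-R against Lean, so this place follows in part from the choice. As a list, the 23 targets split into 11 above and 12 below 0 in DIO-R against DIO. Ppp1r15a encodes GADD34, the phosphatase subunit that ends the eIF2 signal. It stood lowest in DIO instead, with 2.83 ± 0.18 in DIO-R, 2.65 ± 0.20 in DIO and 3.00 ± 0.26 in Lean. It differed by -0.35 ± 0.11 in DIO against Lean (adjusted p = 0.349). Chac1, known as a CHOP and ATF4 target, lay above 0 in both comparisons against Lean and was picked after its values were seen (0.04 ± 0.22 in DIO and 0.20 ± 0.22 in DIO-R).

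Of 7 genes for the sensors and the proteases that cut ATF6, 4, 5 and 3 lay above 0 in DIO against Lean, DIO-R against DIO and DIO-R against Lean. Of 13 kept genes of ER-associated degradation the counts were 4, 9 and 7, and of 15 ER stress regulators 6, 7 and 7. Derl1, a channel component of the degradation machinery, differed by 0.17 ± 0.06 in DIO against Lean (adjusted p = 0.403), and by 0.083 with the mean of its probes. The translocon and secretory path counted 12 of 14 above 0 in DIO against Lean, with a median of only 0.04, then 5 in DIO-R against DIO and 8 in DIO-R against Lean. With each array left out in turn its 12 ran from 7 (without DIO replicate 1 or DIO replicate 6) to 14, and over the other settings from 8 (with array weights) to 14.

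**Figure D5:**
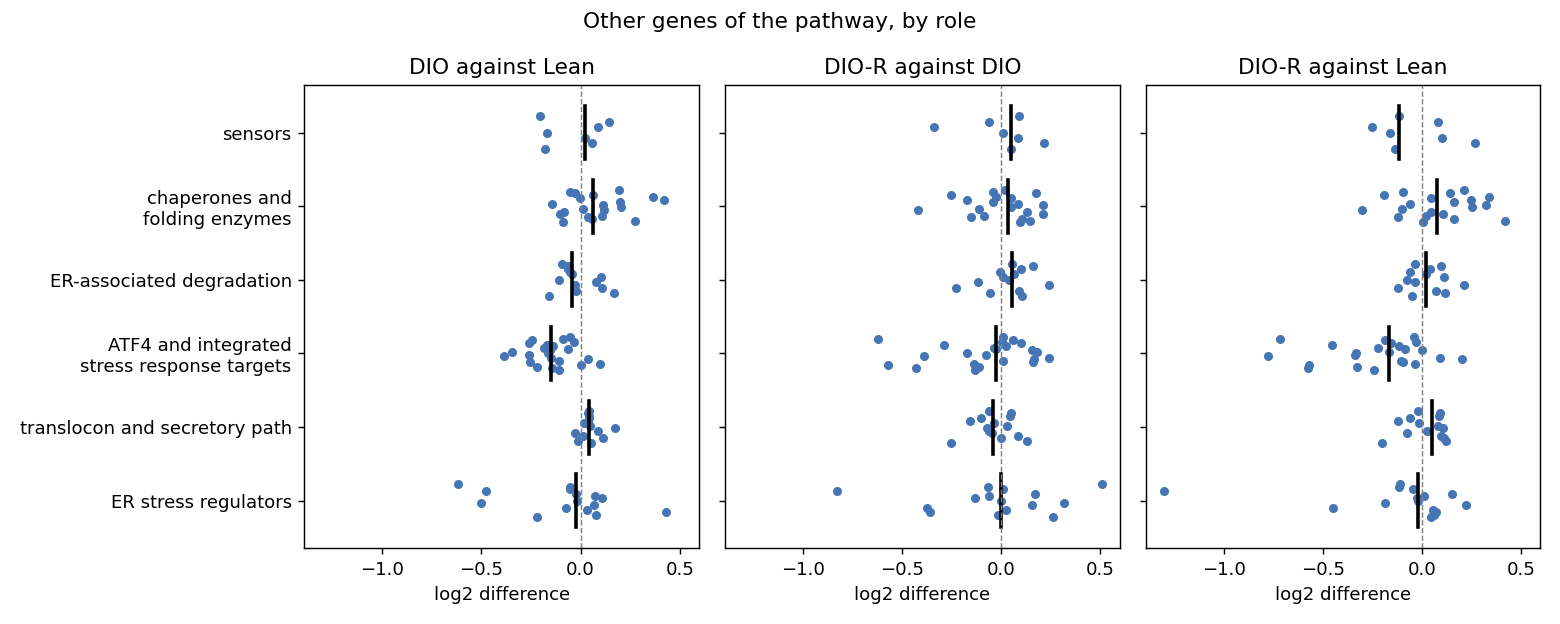
Log2 differences between group means for the 92 further pathway genes kept, 1 point a gene, by role and comparison; black bars are the medians of each role and the dashed line is 0. The ATF4 and integrated stress response targets lie mostly left of 0 against Lean (20 and 21 of 23), and the chaperones mostly right of it (13 and 14 of 20).

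Genes with a pattern like that of Hspa5 were ranked by Pearson r over the 23 arrays among 28352 genes, as a description with no test. The first 2 non-members were Creld2 (r = 0.923) and Dnajb11 (r = 0.891), which encodes ERdj3, a partner of BiP. They were followed by Ddx51, an RNA helicase (0.826), Snrpa, a part of the U1 splicing particle (0.819), and Rmdn3, a tether of ER and mitochondria (0.803). With group means removed these 5 stood at 0.9, 0.866, 0.845, 0.772 and 0.736. In the same ranking Pdia4 was at place 12, Pdia6 at 17, Hsp90b1 at 20 and Calr at 44, while Xbp1 was at 4886 and Atf4 at 23645. Creld2 also holds an ERSE, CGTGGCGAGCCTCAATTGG, read on the opposite strand at 126 to 108 bases before its start.

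Other genes with an ERSE ranged widely in their likeness to Hspa5. Of 19 further genes kept whose promoters hold one, 2 had an r above 0.5 with Hspa5 (10.5%, where 5.04% of all genes with a promoter did), Creld2 and Syvn1 (0.753), a ubiquitin ligase of ER-associated degradation that was picked here after its value was seen. The 19 ranged from -0.607 to 0.923 with a median of 0.187, beside a median of 0.0495 over 14631 genes with a promoter in the table. In the wider set, 4 of 17 chaperones with a promoter held the ERSE (Canx, Dnajc3, Creld2 and Ero1b), 2 of 11 degradation genes (Syvn1 and Derl3), and none of 19 ATF4 targets. Of all promoters 0.119% held one, so none among 19 says little. The wider set was also chosen as pathway genes, so its counts are not an independent finding.

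The 5 genes most like Ddit3 in pattern were Enkur, a gene of cilia and flagella (r = 0.788), Steap3, a metal reductase (0.785), Zfyve21, a zinc finger protein (0.761), the unnamed transcript TC1619275 (0.744) and Ptgis, prostacyclin synthase (0.736). With group means removed they stood at 0.871, 0.873, 0.75, 0.788 and 0.737, and their Spearman coefficients over the arrays were 0.655, 0.665, 0.492, 0.771 and 0.612. Herpud1 was the highest member in that ranking, at place 1174, and Atf4 came at place 20774.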

How the data were processed

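Per the file headers, the scanner intensity of each spot was made with Agilent Feature Extraction 10.10.1.1, background-subtracted within the array, with probe positions on mm9. The authors' deposited value table holds log2 values of 35829 probes; limma is named in the submitters' processing notes, and its exact steps are not given in the sources used here. From the scanner intensity, log2 minus the array's 75th percentile was computed. Control and outlier spots were left out, and spots of a probe averaged. A gene is its probe with the highest mean, kept if well above background on at least 7 arrays. Groups come from the sample titles. Tests used limma 3.58.1 under R 4.3.3 (two-sided, lmFit then eBayes) in 1 model of the 23 arrays with group means only; p-values were adjusted over 28366 genes by Benjamini-Hochberg, with a threshold of 0.05. The scripts were tested on simulated data. Correlations used 100000 permutations in Python 3.11.15 with numpy 2.4.6. Exon and UTR limits on mm9 were not used here. Arrays have no read depth; their number limits the precision.

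The members and all lists were chosen with earlier results of these data known. Named genes are the 10 members, the 4 wider-set genes of smallest p in each comparison where fewer than 4 passed, and the 5 non-members most correlated with Hspa5 and with Ddit3. The result of 1 gene that this rule names is not reported here. Alternatives were another background correction, quantile normalization, the authors' table, 2 other filters on dim probes, the mean of probes, slide or replicate number as a block, other variance models, array weights, only the groups compared, and each array left out. Same-numbered arrays of different groups deviated from their group means with correlations of -0.367 to 0.334 over 18 pairs (median -0.0296). Differently numbered arrays of different groups gave -0.316 to 0.452 over 158 pairs (median -0.0155). No pairing by number showed in these values, but the labels do not say what the numbers mark. Between slides, 0.709% of genes differed and no member did (lowest adjusted p 0.164).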

Additional observations from a re-analysis of the deposited data

Results flagged for a closer look

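Within groups of 7 or 8 arrays, each member was checked for a single array set far from the rest by Dixon's gap-to-range ratio, 30 sets in all; chance alone would mark about 1 in 20. The check marked 5. In DIO replicate 3 it marked Calr at 4.84, Pdia4 at 1.79 and Pdia6 at 6.19, each the highest of its group, and Ddit3 at -0.38, the lowest. In DIO replicate 1 it marked Dnajb9 at 1.20, the lowest. No DIO-R or Lean array was marked. The 3 folding genes marked in DIO replicate 3 correlate with each other over the arrays, so their marks are not independent.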

How the results depend on the processing

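Under 11 alternative settings and 23 fits that each left out 1 array, the count of members passing stayed at 0 in every comparison, the fit with the replicate block included; the smallest adjusted p of a member was 0.102 (Atf4, DIO-R against Lean, array weights). What the replicate number marks is not given. The block on it gave 0, 4 and 9 genes passing among all genes, against 1, 17 and 36. The median over members ran between 0.06 and 0.14 in DIO against Lean, -0.01 and 0.04 in DIO-R against DIO, and 0.10 and 0.16 in DIO-R against Lean with arrays left out. Over the other settings it ran between 0.08 and 0.18 (the authors' value table), -0.02 (quantile normalization) and 0.03, and 0.12 and 0.15. In DIO-R against DIO, Hsp90b1 stood between -0.094 and -0.089 with normexp, the authors' table or array weights, against -0.16. In DIO against Lean, Ppp1r15a was -0.17 with the replicate block, against -0.35, and Atf4 -0.091 with quantile normalization, against -0.15. The count of the wider set in DIO-R against Lean was 3 with array weights (Slc3a2 at -0.50, adjusted p = 0.0325, Eif4ebp1 at -0.83, adjusted p = 0.0426, and Aars) and between 0 and 1 with arrays left out. Array weights gave 61, 38 and 109 genes passing among all genes. Of 1938 values of members and named genes under alternatives, 22 changed sign. These were Txndc11 in DIO against Lean (0.016 with quantile normalization, 0.0081 with the mean of probes), Ddit3 in DIO against Lean (-0.036 with the replicate block), Atf5 in DIO against Lean (-0.17 with the replicate block, -0.042 with array weights), and, with array weights, Calr in DIO-R against DIO (0.014) and Xbp1 in DIO-R against Lean (-0.0059). With arrays left out, Atf5 in DIO against Lean ran from -0.072 to 0.087, Vldlr from -0.22 to 0.017 and Txndc11 from -0.066 to 0.012; Calr in DIO-R against DIO ran from -0.052 to 0.050, Herpud1 from -0.0035 to 0.12, and Xbp1 in DIO-R against Lean from -0.022 to 0.076. The causes were not tested.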
